A study of Mus musculus with 20 samples.

Results

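The genes described here encode the secreted Wnt proteins, the Frizzled and LRP receptors that bind them, the secreted antagonists of the Dkk and Sfrp families, and the Dvl, Axin, beta-catenin and TCF/LEF proteins that carry the signal to the nucleus. Their RNA was measured in whole brains of WT and Hdac4KO neonates. A probe set was included when the platform annotation gave it a single symbol that started with Wnt, Fzd, Dkk, Sfrp, Dvl or Axin and went on with a digit, or when that symbol was Lrp5, Lrp6, Ctnnb1, Lef1, Tcf7 or Tcf7l1. That rule took 94 probe sets of 48 gene symbols, out of 45037 probe sets tested and 18193 symbols in all. No probe set carried Tcf7 alone. The letters of the rule also took Fzd10os, an RNA from the strand opposite Fzd10 and not a receptor, with 2 probe sets. The remaining symbols were 19 ligands, 12 receptors, 8 secreted inhibitors, 6 cytoplasmic relays and 2 nuclear factors.

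Each of the 20 Affymetrix mouse genome arrays measured the brain of a pup at postnatal day 3, 10 WT and 10 Hdac4KO, with 5 pups of each sex per genotype by the labels. The knock-out was germline, so every cell of the brain carried it, and the WT pups were littermates. Heterozygous males were crossed back to females of the B6CBAF1/OlaHsd hybrid background, and the KO pups came from crosses between heterozygotes. No pup was treated. HDAC4 is a class IIa histone deacetylase that binds transcription factors, MEF2 proteins above all, and acts as a co-repressor.

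A Wnt protein binds a Frizzled receptor together with LRP5 or LRP6, and Dishevelled then blocks the complex in which Axin holds beta-catenin for destruction. Beta-catenin that escapes this complex enters the nucleus and switches on genes bound by LEF1 or TCF proteins, among them Axin2, which feeds back on the pathway. In the developing brain, Wnts from the dorsal midline and the cortical hem pattern the hippocampus and cortex, and other Wnts, acting through Frizzled 3 and the planar polarity proteins, guide axons and shape dendrites and synapses.

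Hdac4 checked the genotype labels: the Hdac4KO mean was the lower one at all 3 probe sets of the gene, with log2 fold changes of -1.39, -1.19 and -0.46 (adjusted p = 6.28e-07, 9.48e-07 and 0.0198, limma). Xist, expressed from the silenced X of females, went against the sex label in 3 arrays, WT replicates 5 and 9 and Hdac4KO replicate 10. The Y-linked gene Kdm5d did so too in both WT arrays, while Hdac4KO replicate 10, labelled male, showed Kdm5d at 6.88 beside Xist at 12.3 (log2 signals), with Kdm5d from 7.81 to 8.16 in the other Hdac4KO arrays labelled male. The Hdac4 signals of WT replicate 8 and Hdac4KO replicate 10 lay nearest to the other genotype. At the brightest Hdac4 probe set they were 7.54 and 7.43, so Hdac4KO replicate 10 lay just under the WT range. The other Hdac4KO arrays had 6.02 to 6.59 there, and the other WT arrays 7.77 to 8.08. All labels were kept as given. Array medians ran from 6.26 to 6.32, and all 10 neuronal marker genes lay above the array median on every array. The difference between 3′ and 5′ signals of the actin and Gapdh controls, a measure of RNA integrity, averaged 0.19 ± 0.03 log2 units for WT and 0.22 ± 0.03 for Hdac4KO (SD, n = 10 each; p = 0.0839, permutation test, two-sided). In whole-brain RNA, fewer cells of a type and less RNA per cell cannot be told apart.

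The nuclear end of the pathway reads a short DNA word, and the promoters that hold it are shown for the sequence context of the genes described below. The core words CTTTGAT or CTTTGAA, with an A after the shared start, and the words CTTTGTT or else CTTTGTA, with a T there, were searched on both strands of the 300-base RefSeq promoters of build GRCm38.p6, which were available for 32 of the 48 genes. A word was found for 6 of the 32 genes, against 18.9% of all 27025 symbols with a promoter, and 16.9% of all 32851 promoters held one. Windows of 30 bases around each match are printed 5′ to 3′ on the strand of the gene, with the core word or its reverse complement in capitals. They lie at chr3:131156136-131156165 (Lef1, plus strand), chr1:59482006-59482035 (Fzd7, plus strand), chr7:98835050-98835079 (Wnt11, plus strand), chr6:119449439-119449468 (Wnt5b, minus strand), chr11:103774182-103774211 (Wnt3, plus strand, downstream of the annotated start), and chr19:30549595-30549624 and chr19:30549576-30549605 (both Dkk1, minus strand).
Lef1: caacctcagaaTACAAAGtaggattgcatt
Fzd7: tccacagagaaAACAAAGcgcgctattgga
Wnt11: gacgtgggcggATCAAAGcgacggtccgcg
Wnt5b: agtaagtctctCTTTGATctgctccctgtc
Wnt3: cctcaagtggaCTTTGTTccaactattggg
Dkk1 upstream word: tcctcccaaagCTTTGAAatcccatcccgg
Dkk1 downstream word: tcccatcccggCTTTGTTgtcttccctgag
Dkk1 alone held 2 words, both on the strand of the gene and both before its annotated start, 117 and 98 bases away. Upstream and downstream in the Dkk1 labels give only the order of these words. A match is a description of these letters and not of a bound site, and a missing match says only that the letters are not in this window.

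Most genes of the family differed little between the genotypes. Of the 94 probe sets, 1 passed an adjusted p under 0.05 with limma, and it was lower in Hdac4KO brains; among all 45037 probe sets, 2.06% were called, 1.05% as higher and 1.01% as lower. The share among the family, 1.06%, was not above that background. At an unadjusted p under 0.05 there were 22 of the 94, 11 higher and 11 lower, where the background was 18.0% in either direction, 9.93% higher and 8.10% lower. The median log2 fold change was -0.00 and the median of its absolute value was 0.05, against 0.00 and 0.05 over all probe sets. In no probe set of the family did the genotypes fail to overlap, which happened in 0.0777% of all probe sets.

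Taking for each gene its brightest probe set, the one with the highest mean over the 20 arrays, none of the 48 genes passed with limma, none passed with the methods' t-test, and 11 had an unadjusted p under 0.05, 7 of them higher. Among all 18193 genes, 1.96% were called in this way and 19.0% had an unadjusted p under 0.05. The log2 fold changes of the 48 genes ran from -0.15 to 0.18. The 95% confidence interval lay within a 1.2-fold difference in either direction for 46 of the 48, against 90.4% of all genes. The exceptions were Wnt9a, whose interval reached 0.33, and Wnt2, whose interval reached 0.29 on the log2 scale. These intervals bound the difference in array signal, and only 25 of the 48 probe sets lay above the array median on at least 10 arrays.

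**Figure D1:**
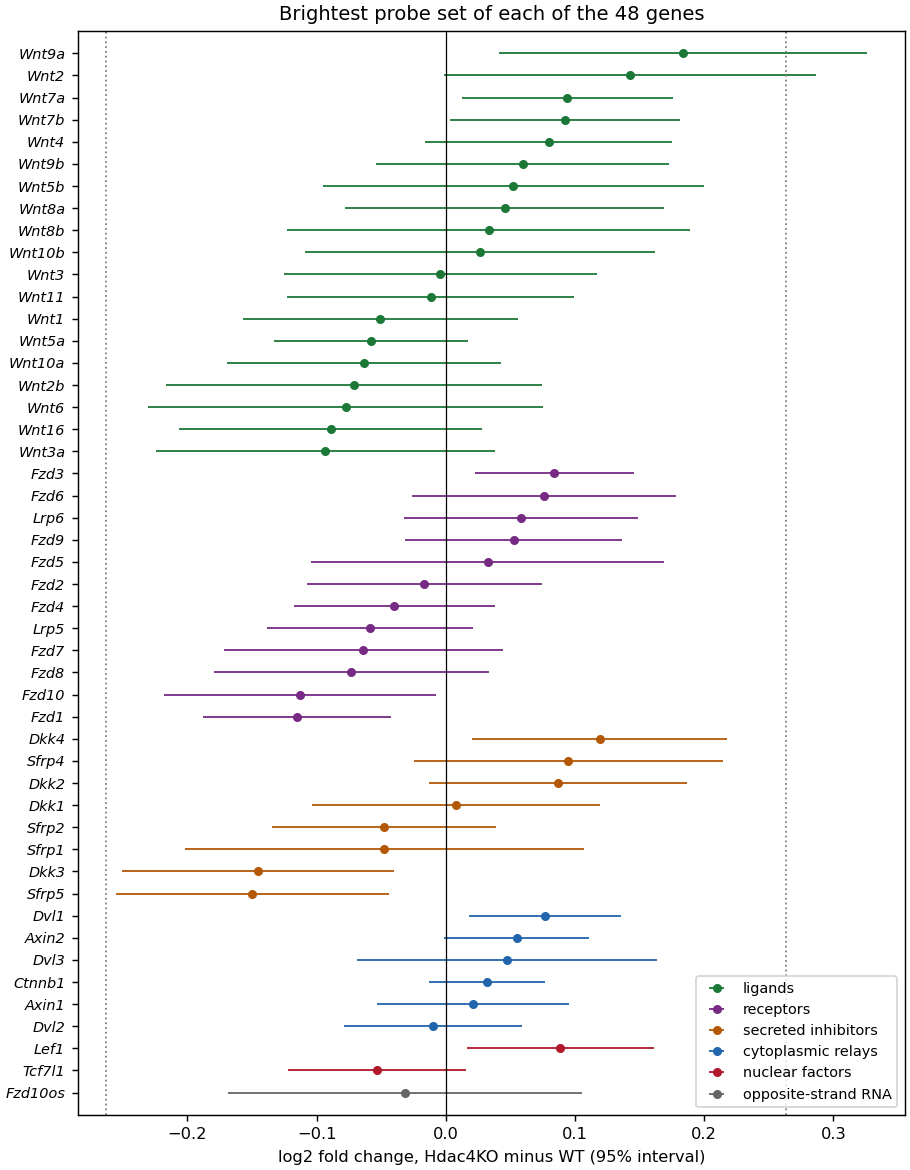
Log2 fold change between Hdac4KO and WT brains (x axis, Hdac4KO minus WT) at the brightest probe set of each of the 48 genes (y axis), grouped by role; points are limma estimates from 10 arrays per genotype bars are 95% confidence intervals, and dotted lines mark a 1.2-fold difference. The estimates run from -0.15 to 0.18, and no gene passed an adjusted p under 0.05.

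Probe sets of 1 gene often pointed in opposite directions. Of the 31 genes with several probe sets, 21 had log2 fold changes of both signs, and this was so for 58.2% of the 9010 genes with several probe sets over the whole array. Among the 94 probe sets, 43 lay above the array median on at least 10 arrays, against 50.2% of all probe sets, and the brightest probe set did so for 25 of the 48 genes. By role these were 5 of 19 ligand genes, 9 of 12 receptor genes, 4 of 8 inhibitor genes, 5 of 6 relay genes and both nuclear factors. The ligand genes above the median were Wnt4, Wnt5a, Wnt7a, Wnt7b and Wnt9a. A dim probe set does not show that a transcript is absent, and signals are not compared between probe sets.

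**Figure D2:**
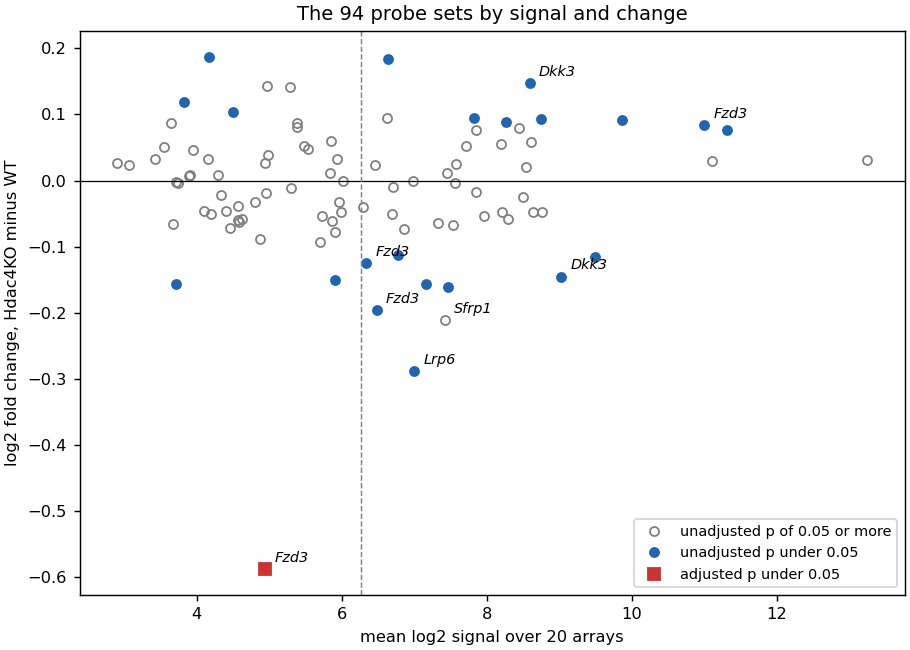
Log2 fold change, Hdac4KO minus WT (y axis), against the mean log2 signal over 20 arrays (x axis) for the 94 probe sets, coloured by p (grey, unadjusted p of 0.05 or more; blue, under 0.05; red square, adjusted p under 0.05), with the lowest array median as a dashed line. The single called probe set, of Fzd3 at -0.59, lies left of the line among the dim probe sets, and the brightest Fzd3 probe set lies far to the right at 0.08.

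Fzd3, the Frizzled that works with planar polarity proteins in axon tract formation, had the single call, at 1 of its 6 probe sets. At probe set 1438101_at the log2 signal was 4.73 at the lowest, 5.27 at the median and 5.70 at the highest in WT brains, and 4.15, 4.75 and 5.13 in Hdac4KO brains. All 10 Hdac4KO arrays lay below the WT mean and 5 lay below the lowest WT array, while the other 5 overlapped with WT. The mean fell from 5.24 ± 0.33 to 4.65 ± 0.36 (SD, n = 10 each), a difference of -0.59 log2 units (SE 0.14, 95% interval -0.88 to -0.29, adjusted p = 0.0368 from limma), or 1.50-fold. It lay under the array median on all 20 arrays. Hdac4KO replicates 8, 9 and 10 were its lowest arrays, at 4.15, 4.19 and 4.20, and no other array lay under 4.55.

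The brightest Fzd3 probe set, 1434788_at, differed in the opposite direction and did not pass. Its log2 signal was 10.84, 10.95 and 11.05 in WT and 10.97, 11.03 and 11.13 in Hdac4KO brains at the lowest, median and highest array, and each of the 10 Hdac4KO brains exceeded the WT mean. The difference was 0.08 log2 units (SE 0.03, adjusted p = 0.131, limma). Of the other 4 probe sets, 1449730_s_at had -0.20 (adjusted p = 0.0931), 1421157_at -0.12 (adjusted p = 0.0682), 1420087_at -0.07 (adjusted p = 0.621) and 1450135_at 0.01 (adjusted p = 0.955). At 1421157_at, too, every Hdac4KO array lay below the WT mean, with 6.27 to 6.48 in WT and 6.19 to 6.38 in Hdac4KO brains. Thus 4 of the 6 probe sets had a negative log2 fold change, while the brightest one, which alone lay above the array median on all 20 arrays, had a positive value. Averaged over the 6 probe sets before the fit, Fzd3 had -0.15 (adjusted p = 0.0267).

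**Figure D3:**
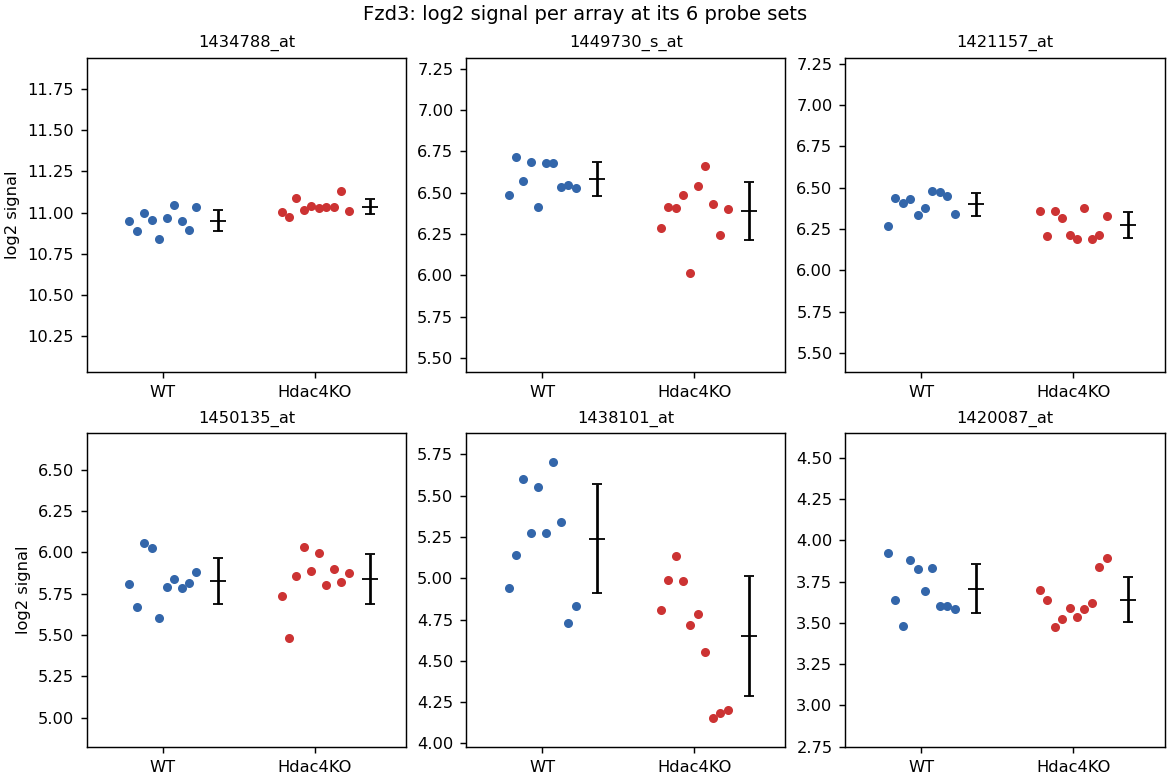
Log2 signal (y axis) of the 6 Fzd3 probe sets, 1 per panel, in 10 WT and 10 Hdac4KO brains; each point is an array, and the bar beside them is the mean with its SD. At 1438101_at 5 of 10 Hdac4KO points lie below the lowest WT point, whereas at the brightest probe set, 1434788_at, all 10 exceed the WT mean.

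The Fzd3 call at 1438101_at was held by a narrow margin. It passed under 15 of 32 alternatives, with adjusted p between 0.0155 and 0.152 and log2 fold changes between -0.64 and -0.51. It was lost with the methods' t-test (adjusted p = 0.0540) and Welch's test (adjusted p = 0.0616). It was lost too without any 1 of WT replicates 2, 3, 4, 5, 6, 7 and 8 or Hdac4KO replicates 5, 7, 8, 9 and 10 (adjusted p from 0.0557 to 0.0743), and in the fit that also held the integrity measure of the controls (-0.51, adjusted p = 0.152). Without WT replicate 8 and Hdac4KO replicate 10 the value was -0.53 (adjusted p = 0.0938), and without the 3 arrays whose Xist went against their sex label it was -0.56 (adjusted p = 0.0642).

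Among the other receptors none passed, and the values below are given as they stand. Lrp6, a co-receptor required for beta-catenin signalling, came closest at 1451022_at and was named after its values were seen. There the log2 signal was 6.86, 7.16 and 7.40 in WT and 6.42, 6.93 and 7.16 in Hdac4KO brains (lowest, median, highest), a difference of -0.29 (SE 0.08, adjusted p = 0.0679, limma). Of the Hdac4KO arrays, 9 lay below the WT mean and 3 below all WT arrays. The brightest Lrp6 probe set, 1428500_at, had 0.06 (SE 0.04, adjusted p = 0.519), with 8.42 to 8.72 in WT and 8.50 to 8.78 in Hdac4KO brains. Lrp6 at 1451022_at passed under 5 of 33 alternatives, among them the fit without WT replicate 9 (-0.32, adjusted p = 0.0379) and without Hdac4KO replicate 4 (-0.32, adjusted p = 0.0423).

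Fzd1, a receptor for beta-catenin signalling, had a tight WT group at its brightest probe set, 1437284_at, with 9.50, 9.54 and 9.61 at the lowest, median and highest array. The Hdac4KO brains had 9.27, 9.46 and 9.55 there, and 8 of the 10 lay below every WT array. The difference was -0.12 (SE 0.03, adjusted p = 0.0814, limma). Its second probe set, 1422985_at, which lay under the array median on all arrays, had 0.10 (SE 0.04, adjusted p = 0.173). For Fzd10, expressed along the dorsal neural tube during development, the brightest probe set had 6.62 to 7.03 in WT and 6.59 to 6.81 in Hdac4KO brains, with all 10 Hdac4KO arrays below the WT mean (-0.11, SE 0.05, adjusted p = 0.241). Fzd6, known for planar polarity in skin and hair, had 0.08 (SE 0.05, adjusted p = 0.443). Fzd2, Fzd4, Fzd5, Fzd7, Fzd8, Fzd9 and Lrp5 had values between -0.07 and 0.05 at their brightest probe sets. The Fzd7 promoter holds 1 of the words shown above, and its signal at the brightest probe set was 7.20 to 7.53 in WT and 7.16 to 7.50 in Hdac4KO brains (-0.06, adjusted p = 0.563).

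Of the 19 ligand genes, 10 had positive and 9 negative log2 fold changes at the brightest probe set, and none passed. Wnt9a, a ligand known from joint formation, had the largest value. Its log2 signal was 6.44, 6.53 and 6.75 in WT and 6.42, 6.70 and 7.17 in Hdac4KO brains, and 4 Hdac4KO arrays lay above every WT array (0.18, SE 0.07, adjusted p = 0.153, limma). Its second probe set had 0.09 (adjusted p = 0.298). Wnt9b, known for kidney and facial development, had 0.19 (SE 0.07, adjusted p = 0.162) at a dim probe set and 0.06 (adjusted p = 0.616) at its brightest. Wnt2 had 0.14 (SE 0.07, adjusted p = 0.282), with 4.56 to 5.16 in WT and 4.86 to 5.22 in Hdac4KO brains.

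Wnt7a and Wnt7b, which are made by neural progenitors and neurons and act on the brain's vessels and synapses, had positive values at their brightest probe sets. For Wnt7a the log2 signal was 7.60, 7.78 and 7.91 in WT and 7.74, 7.88 and 7.99 in Hdac4KO brains (0.09, SE 0.04, adjusted p = 0.203, limma). For Wnt7b it was 8.53, 8.71 and 8.81 in WT and 8.67, 8.78 and 8.98 in Hdac4KO brains (0.09, SE 0.04, adjusted p = 0.258). In both genes the groups overlapped, with 3 Hdac4KO arrays above every WT array. The dimmer Wnt7b probe set had 0.14 (adjusted p = 0.303), and the other Wnt7a probe sets had -0.00 and 0.03.

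Wnt5a, a ligand that mostly acts without beta-catenin and is also made by the choroid plexus, was named after its values were seen. Its brightest probe set had 8.22 to 8.44 in WT and 8.14 to 8.38 in Hdac4KO brains (-0.06, SE 0.04, adjusted p = 0.423, limma). At 1448818_at it had 6.96 to 7.39 in WT and 6.66 to 7.27 in Hdac4KO brains (-0.16, SE 0.07, adjusted p = 0.211). The groups overlapped at both. The midline and hem ligands Wnt3a, Wnt2b and Wnt8b had -0.09, -0.07 and 0.03 at their brightest probe sets. Wnt1, a ligand of the midbrain, had -0.05. The remaining ligands Wnt3, Wnt4, Wnt5b, Wnt6, Wnt8a, Wnt10a, Wnt10b, Wnt11 and Wnt16 lay between -0.09 and 0.08.

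The 8 secreted inhibitors were split evenly, 4 with positive and 4 with negative values, and none passed. Dkk3, a divergent member of the Dickkopf family that neurons express, had 2 bright probe sets of opposite sign. At 1417312_at, the brighter one, its log2 signal was 8.83, 9.12 and 9.28 in WT and 8.80, 8.96 and 9.13 in Hdac4KO brains, with 9 Hdac4KO arrays below the WT mean (-0.15, SE 0.05, adjusted p = 0.125, limma). At 1448669_at it was 8.31, 8.52 and 8.71 in WT and 8.38, 8.68 and 8.83 in Hdac4KO brains, with 8 Hdac4KO arrays above the WT mean (0.15, SE 0.06, adjusted p = 0.159). Both lay above the array median on all 20 arrays, and their average had 0.00 (adjusted p = 0.996). Without WT replicate 9, Dkk3 passed at 1417312_at (-0.17, adjusted p = 0.0392).

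Sfrp5, a soluble decoy for Wnts, had the smallest p of the inhibitors at a brightest probe set. Its log2 signal was 5.76, 5.96 and 6.19 in WT and 5.59, 5.81 and 5.99 in Hdac4KO brains, with 9 Hdac4KO arrays below the WT mean (-0.15, SE 0.05, adjusted p = 0.119, limma). It lay under the array median on all arrays. Sfrp1, a decoy made by cortical progenitors, had the largest single value among the inhibitors, -0.21 at 1460187_at, with a wide spread (SE 0.15, adjusted p = 0.502). Its brightest probe set had -0.05 (SE 0.07, adjusted p = 0.797), and 1416594_at had -0.16 (SE 0.07, adjusted p = 0.253). Dkk4 had 0.12 (SE 0.05, adjusted p = 0.183) and Dkk2 0.09 (SE 0.05, adjusted p = 0.356), both at dim probe sets. Dkk1, an antagonist that binds LRP5 and LRP6 and whose promoter holds the words shown above, had 0.01 (adjusted p = 0.963). Sfrp2 and Sfrp4 had -0.05 and 0.09.

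The cytoplasmic relays had small values, positive in 5 of 6 genes at the brightest probe set, where 10404 of all 18193 genes were positive. Of their 12 probe sets, 8 were positive and 4 negative. Dvl1, a Dishevelled adaptor, had a log2 signal of 11.21, 11.27 and 11.37 in WT and 11.28, 11.35 and 11.44 in Hdac4KO brains (0.08, SE 0.03, adjusted p = 0.149, limma). Each Hdac4KO brain exceeded the WT mean. Its other probe set had 0.09 (SE 0.04, adjusted p = 0.235). Axin2, the feedback gene that beta-catenin switches on, had 8.07, 8.17 and 8.24 in WT and 8.17, 8.21 and 8.27 in Hdac4KO brains (0.05, SE 0.03, adjusted p = 0.289). Ctnnb1, which encodes beta-catenin, had 13.18, 13.23 and 13.27 in WT and 13.24, 13.25 and 13.32 in Hdac4KO brains (0.03, SE 0.02, adjusted p = 0.472). In both of these genes, too, the 10 Hdac4KO brains all exceeded the WT mean at this probe set. The interval for Axin2 ran from -0.00 to 0.11 on the log2 scale. Their dim or lesser probe sets had -0.05 (Axin2) and 0.03 and -0.05 (Ctnnb1). Axin1, Dvl2 and Dvl3 had 0.02, -0.01 and 0.05.

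Lef1, which binds the words shown above and marks the thalamus and the dentate gyrus, had a log2 signal of 8.13, 8.22 and 8.34 in WT and 8.19, 8.30 and 8.47 in Hdac4KO brains. Of the Hdac4KO arrays, 9 lay above the WT mean, and the groups overlapped (0.09, SE 0.03, adjusted p = 0.173, limma). Its dimmer probe set had -0.06 (adjusted p = 0.714). Tcf7l1, a TCF that mostly represses, had medians of 7.98 in WT and 7.97 in Hdac4KO brains, with overlapping groups (-0.05, SE 0.03, adjusted p = 0.420). Both probe sets of Fzd10os were dim, with -0.03 and -0.05.

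**Figure D4:**
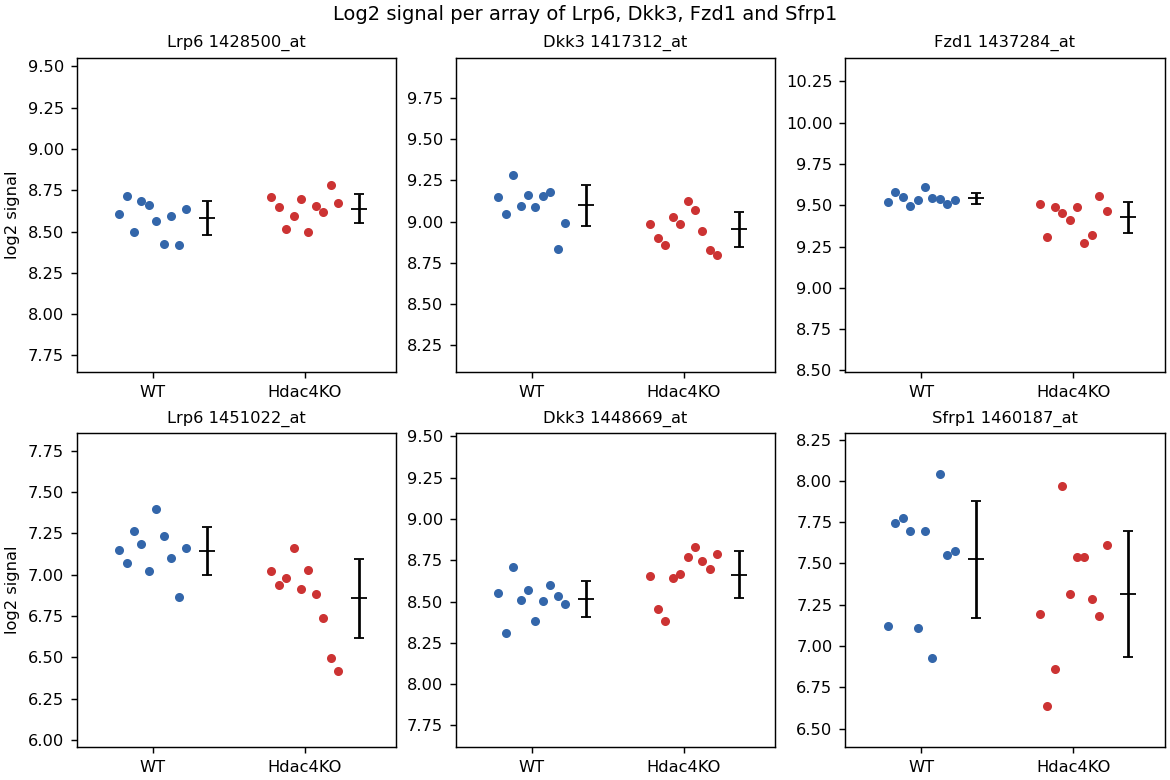
Log2 signals (y axis) of probe sets of Lrp6, Dkk3, Fzd1 and Sfrp1 in 10 WT and 10 Hdac4KO brains, 1 probe set per panel; each point is an array, and the bar beside them is the mean with its SD, and every panel spans the same range of log2 units. The genotypes overlap in each panel, also at Fzd1, where 8 of 10 Hdac4KO points lie below the lowest WT point, and at the pair of Dkk3 probe sets with -0.15 and 0.15.

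Sex by the labels made no called difference to these effects. In a limma fit of the 4 groups of genotype and sex, no family probe set passed the interaction test, and over all probe sets 0.00% did. At an unadjusted p under 0.05 there were 6 of the 94, against 5.35% of all. With each sex fitted alone, the difference between the sexes also passed for none (lowest adjusted p = 0.975). The smallest p was at a lesser Wnt7a probe set, 1447647_at, with 0.15 in males and -0.15 in females (difference 0.30, SE 0.09, unadjusted p = 0.00252, adjusted p = 0.915). At the called Fzd3 probe set the values were -0.58 in males and -0.59 in females. The contrasts within each labelled sex, 5 arrays against 5, came from the fit of 4 groups, with its variance pooled over all arrays. No family probe set passed there (lowest limma adjusted p = 0.172 in males, at Dkk4, and 0.275 in females, at Wnt3a). Of all probe sets, 0.0377% did in males and 0.0400% in females. The 3 arrays whose Xist went against their label were kept in these fits. Without them the interaction also passed for no family probe set (lowest adjusted p = 0.507, limma).

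Other genes of Wnt signalling were taken from 7 lists by their role, 76 genes in all, each by its brightest probe set. Of these, 3 passed, 2 higher and 1 lower, where 1.45% of all genes were higher and 0.517% lower. Prickle1 and Prickle2 rose. Both encode planar polarity proteins that work beside Frizzled and Dishevelled in the branch without beta-catenin. For Prickle1 the log2 signal was 8.82, 8.92 and 8.99 in WT and 8.99, 9.14 and 9.32 in Hdac4KO brains, and the groups did not overlap although the highest WT and lowest Hdac4KO arrays nearly met (0.23, SE 0.04, adjusted p = 0.0142, limma). For Prickle2 it was 10.32, 10.40 and 10.46 in WT and 10.35, 10.62 and 10.76 in Hdac4KO brains, with 9 of 10 Hdac4KO arrays above the WT mean (0.18, SE 0.05, adjusted p = 0.0392). Prickle1 passed under 33 of 34 alternatives, all but the fit that also held the RNA integrity measure (0.22, adjusted p = 0.0684). Prickle2 passed under 15 of 34 (adjusted p from 0.0127 to 0.142) and was lost without any 1 of WT replicates 1 to 8 or Hdac4KO replicates 5 to 10. The other Prickle1 probe sets, both dim, had 0.14 (adjusted p = 0.122) and 0.03 (adjusted p = 0.806).

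Sostdc1, an antagonist of both Wnt and BMP signals that the choroid plexus expresses, fell. Its log2 signal was 7.86, 8.27 and 8.63 in WT and 7.71, 7.96 and 8.26 in Hdac4KO brains, and all 10 Hdac4KO arrays lay below the WT mean (-0.30, SE 0.08, adjusted p = 0.0478, limma). Its second probe set had -0.30 (SE 0.06, adjusted p = 0.0198). At the first the call held under 11 of 34 alternatives (adjusted p from 0.0195 to 0.134), and among fits without 1 array only under those without WT replicate 1 or 9 or Hdac4KO replicate 3. The methods' t-test (adjusted p = 0.0629) and Welch's test (adjusted p = 0.0742) did not call it there. Nor did the limma fits with labelled sex (adjusted p = 0.0563) or the RNA integrity measure (adjusted p = 0.134). Of the choroid plexus markers, 8 of the 9 measured had negative log2 fold changes, against 7789 of all 18193 genes. So had 10 of 12 radial glia and astrocyte markers and 9 of 12 meningeal and fibroblast markers. Negative values were fewer in the neuronal (4 of 10), endothelial and mural (6 of 13), granule cell (5 of 8), thalamus (4 of 8) and erythroid (3 of 6) lists. In the choroid plexus list Ttr (-0.14, adjusted p = 0.0420, limma) and Calml4 (-0.38, adjusted p = 0.0368, limma) passed as lower. Calml4 passed under 20 of 34 alternatives (adjusted p from 0.0161 to 0.0982) and Ttr under 18 of 33 (0.0131 to 0.126). Both were lost with the RNA integrity measure in the fit, and without any 1 of WT replicates 2 to 7 or Hdac4KO replicates 5, 7, 8 and 9. Calml4 was lost too without Hdac4KO replicate 6, and Ttr without Hdac4KO replicate 10. The mean of the choroid plexus list ran from 7.35 to 7.71 in WT and from 6.86 to 7.56 in Hdac4KO brains. Of its 9 markers, 6 lay above the array median on at least 10 arrays. Their part in the Sostdc1 and Wnt5a values was not tested.

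By list, the 13 planar polarity genes and other Wnt receptors had a median of 0.03, with 2 called higher. The 8 other secreted antagonists had a median of 0.00, with 1 called lower. The 14 genes of the destruction complex had a median of 0.04, and the smallest p was at Tnks, a tankyrase that marks Axin for breakdown (0.12, adjusted p = 0.0703, limma). The 12 nuclear partners of beta-catenin had a median of 0.01, with Cdc73 first by p (-0.12, adjusted p = 0.108). The 8 genes of Wnt release and activation had a median of 0.04, led by Reck, which presents Wnt7 ligands to their receptor (0.18, adjusted p = 0.0591). The 9 R-spondin and receptor turnover genes had a median of 0.06, led by the ubiquitin ligase Rnf43 (0.14, adjusted p = 0.159). The 18 targets of beta-catenin had a median of 0.01, with Prox1, a regulator of dentate granule cells, first by p (-0.32, adjusted p = 0.122). The median over all genes was 0.01.

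A gene with more probe sets has more chances of a call. The 76 genes held 193 probe sets and all 18193 genes held 34945, so shares by any probe set are not strictly alike. Taking any probe set, 7 of the 76 genes had a call, against 4.06% of all genes. Beside those above, they were Csnk1e, a casein kinase that phosphorylates Dishevelled (0.13, adjusted p = 0.0198, limma), and the targets Id2 (0.12, adjusted p = 0.0426), Mycn (-0.18, adjusted p = 0.0236) and Prox1 (-0.49, adjusted p = 0.0203). Each was called at a lesser probe set. At Csnk1e the genotypes did not overlap there, with 10.63 to 10.75 in WT and 10.78 to 10.90 in Hdac4KO brains. The brightest probe sets of Csnk1e, Id2 and Mycn had 0.08, 0.01 and -0.04 and did not pass. The targets that passed thus had both signs.

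**Figure D5:**
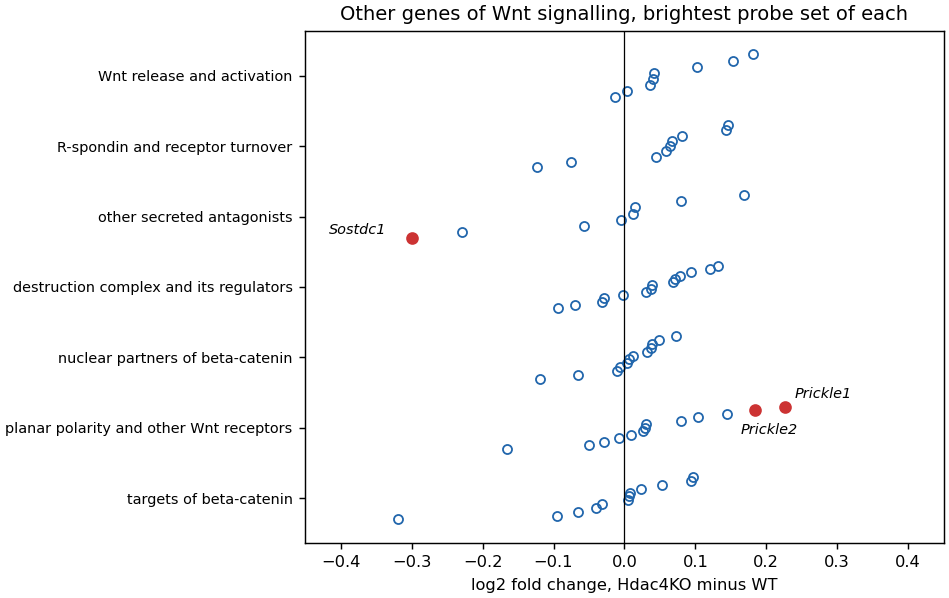
Log2 fold change, Hdac4KO minus WT (x axis), at the brightest probe set of Wnt pathway genes outside the family, by list (y axis); filled red points are called at an adjusted p under 0.05 and open points are not, and a gene held by more than 1 list is drawn once. Prickle1 (0.23) and Prickle2 (0.18) lie to the right and Sostdc1 (-0.30) to the left.

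Among the 78 measured marker genes of the cells and regions of the brain, 4 passed at the brightest probe set, all lower. Of all genes, 1.96% were called in either direction and 0.517% as lower. Beside Ttr and Calml4 they were Igfbp2 of the 12 meningeal and fibroblast markers (-0.20, adjusted p = 0.0221, limma) and Nefl of the 10 neuronal markers (-0.28, adjusted p = 0.0427). Igfbp2 passed under 33 of 34 alternatives, all but the fit with the RNA integrity measure (adjusted p = 0.0982), and Nefl under 15 of 34 (adjusted p from 0.00992 to 0.170). Nefl was lost without any 1 of WT replicates 2 to 8 or Hdac4KO replicates 1 and 5 to 10. The methods' t-test called 3 markers, Ttr and Igfbp2 as lower and the neuronal Syt1 as higher (0.14, adjusted p = 0.0460), and neither Calml4 nor Nefl. At the brightest probe set none passed among 12 markers of radial glia and astrocytes, 13 of endothelial and mural cells, 8 of cerebellar granule cells, 8 of the thalamus and 6 of erythroid cells, and the methods' t-test also called none. At an unadjusted p under 0.05 there were, in that order, 3 (all lower), 2 (both higher), 1 (higher), 2 (1 higher, 1 lower) and 1 (higher). Taking any probe set, limma called 1 radial glia and astrocyte marker lower, and 1 thalamus marker higher and 1 lower. The neuronal list then had 2 called lower. Over all genes, 4.06% had a call at any probe set, a share that depends on the number of probe sets per gene. The mean of the neuronal list ran from 12.62 to 12.65 in WT and from 12.58 to 12.68 in Hdac4KO brains, that of the meninges from 8.93 to 9.31 and from 8.92 to 9.16.

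Hdac4 has 4 genes of the family on its own chromosome, and none was called. Wnt10a, Wnt6, Fzd5 and Fzd7 lie 154, 155, 218 and 251 protein-coding genes away in the RefSeq order of GRCm38.p6. Their log2 fold changes at the brightest probe set were -0.06, -0.08, 0.03 and -0.06 (adjusted p = 0.558, 0.632, 0.852 and 0.563, limma).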

How the data were processed

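Whole-brain RNA from 10 WT and 10 Hdac4KO pups was profiled on Affymetrix mouse genome arrays. Labelled cRNA was made from 200 ng of RNA with a 3′ IVT kit, and the authors deposited 1 log2 signal per probe set and array. How these were summarised and normalized was not given in the sources used here. Quartiles were alike in all arrays. Array values are limited in precision by the number of arrays, 10 per genotype. No arrays held identical values.

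The values were not transformed further. Without the 64 controls, 45037 of 45101 probe sets entered a linear model of genotype alone (limma 3.58.1, lmFit then eBayes, under R 4.3.3). Benjamini-Hochberg adjustment covered all 45037 p-values, and calls were made under 0.05. The methods name a t-test, which was run as an alternative on the same values. Gene symbols came from the platform annotation, in which 34945 probe sets carry 1 symbol. Sex effects came from an interaction in a fit of 4 groups. The RNA integrity measure was compared with 100000 resamples. The fits were tested on simulated data.

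Members and gene lists were chosen with earlier results of these data known. The genes named are those with a call, the 4 with the smallest p in each role and the one with the largest change, and in the pathway lists the called genes or the one with the smallest p. Lrp6 and Wnt5a, and the genes called only at a lesser probe set, were named after their values were seen.

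Alternatives were the methods' t-test, Welch's test, labelled sex or the 3′ to 5′ measure added to the model, a replicate block, removal of dim probe sets (not above the array median on at least 10 arrays), quantile normalization, centring on the median, eBayes with trend and robust options, weighted arrays, 1 probe set per gene (brightest or most variable), the mean of a gene's probe sets, and each array left out. Leaving out WT replicate 8 with Hdac4KO replicate 10, and the 3 arrays whose Xist goes against the sex label, was chosen after seeing the data. Promoters and gene order came from RefSeq tables of GRCm38.p6; 16 genes had no promoter entry. The arrays' files name no genome build.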

Additional observations from a re-analysis of the deposited data

Results flagged for a closer look

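In 74 groups of 10 arrays, that is both genotypes of each named probe set, the gap between the highest or lowest array and the next was set against the range of the group with Dixon's test at the 95% level. The gap was larger in 6 of them, and chance alone gives such a gap in about 1 in 20 groups. At Wnt9b the dim probe set had 4.70 in Hdac4KO replicate 1, next to 4.34. At Wnt9a WT replicate 9 had 6.75, next to 6.60, and at Dkk2 WT replicate 4 had 5.54, next to 5.36. At Wnt5a WT replicate 1 was the lowest of its group with 6.96, next to 7.17, and at Sfrp5 Hdac4KO replicate 10 was the lowest with 5.59, next to 5.78. At Ctnnb1 Hdac4KO replicate 8 had 13.32, next to 13.27. None of these probe sets was called with all arrays, and none was called without any 1 array.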

How the results depend on the processing

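Of the alternatives run, the number of family probe sets called, 1 with all arrays, was 0 with the methods' t-test, Welch's test, the 3′ to 5′ covariate, 1 brightest probe set per gene, and both sets of arrays left out together. It was 2 with trend and robust eBayes (adding Lrp6) or array weights (adding Fzd1) and 3 with dim probe sets left out, which removed the called Fzd3 probe set from the test and added 1421157_at of Fzd3, Fzd1 and Lrp6. Without 1 array it ran from 0 to 3. Family genes called by their representative probe set, 0, became 1 with dim probe sets left out, array weights, the largest-variance probe set or the mean of probe sets, and 0 to 1 without 1 array. Other pathway genes called, 3, became 2 with the methods' t-test, both higher, and 1 with Welch's test. They became 0 with the covariate, 7 with dim probe sets left out, 6 with trend and robust eBayes and 5 with the largest-variance probe set. Under either set of arrays left out there was 1, and without 1 array there were 1 to 3. Marker genes called, 4, became 2, 0, 9, 8 and 8 with Welch's test, the covariate, dim probe sets left out, trend and robust eBayes and array weights, 2 under either set of arrays left out, and 1 to 7 without 1 array. The interaction with sex stayed at 0 under both alternatives. The cause of these shifts was not tested. Signs turned at Fzd3 1450135_at (-0.016 with the covariate, -0.0227 without the 3 arrays whose Xist goes against the sex label, -0.0139 to 0.0503 without 1 array), and with the mean of probe sets at the brightest probe sets of Fzd3 (-0.15), Lrp6 (-0.12) and Dkk3 (0.000955).

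The replicate block, pairing arrays by their number, gave 3 calls in the family (adding 1449730_s_at of Fzd3 and Lrp6) and 948 against 927 over all probe sets. Correlations within these pairs were low: 1 of 10 pairs had a correlation above 0.1 (range -0.149 to 0.162), and 1 of 10 WT arrays correlated best with its own number. What the replicate numbers stand for was not given in the sources used here, so these values cannot settle whether the design paired the arrays. Dim signals, which 51 of the 94 probe sets had, limit what can be measured.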
